A study of Mus musculus with 76 samples.

Results

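Patched hippocampal interneurons were compared by their level of Neurod6 transcripts, a transcription factor gene of pyramidal neurons. Each cell is 1 Patch-seq library, made from the contents of a neuron drawn into a patch pipette in an acute brain slice, and the labels describe 76 of them. The comparison covered the 62 cells that passed the authors' quality filter and carry no contamination mark. Of these, 31 had Neurod6 at 10 CPM (counts scaled to the cell's total) or more and are called Neurod6 carriers here, and 31 were below 10 CPM and are called the other cells. The 2 sets were chosen by this Neurod6 level, so its own values are given as a description with no test, and Neurod6 was left out of every count of genes below.

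All cells came from pups at postnatal day 4 and were tdTomato-positive neurons in the pyramidal layer of dorsal CA1. The reporter was switched on by Nkx2.1-Cre crossed to Ai14, so it marks cells born in the medial ganglionic eminence (MGE), and animals of every group carried both alleles. The labels give 2 genotypes, mice with the gephyrin mutation S268/270A, called Mut, and mice with wild-type gephyrin, called WT, in both sexes. The 62 cells comprised 15 Mut male, 19 Mut female, 19 WT male and 9 WT female cells. No animal, litter or slice is named in the labels, so the cells of a label group may share animals and were not treated as replicates. For testing, expected counts were summed over the carriers and over the other cells of each of the 4 label groups, and the difference was tested over these 4 pairs of sums. A higher sum can stand for more cells with a transcript or for more of it per cell, which sums cannot tell apart, so the number of cells is given beside each level. The spread in these tests is that between the 4 pairs and not between known animals.

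Neurod6 belongs to the NeuroD family of basic helix-loop-helix factors and is used as a marker of glutamatergic neurons of the cortex and hippocampus, where it is switched on as pyramidal neurons leave the cell cycle. MGE interneurons are GABAergic and are recognised by Lhx6, which Nkx2-1 induces, and by Gad1 and Gad2, the enzymes that make GABA. Their somata in the CA1 pyramidal layer lie among densely packed pyramidal cells. Whether a transcript came from the recorded cell or from tissue around the pipette cannot be told apart in these libraries.

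Neurod6 ran from 11.02 to 1482 CPM in the carriers, with a median of 204 CPM, and from 0 to 6.68 CPM in the other cells, with a median of 1.23 CPM. Only 2 of the 31 cells below the limit had no Neurod6 count at all. The carriers stood mostly well above the limit, with 29 of them at 50 CPM or more, while 12 of the other cells were below 1 CPM. Just inside the limit stood WT male cell 15 with 11.02 CPM and WT male cell 10 with 17.3 CPM, followed by WT female cell 1 with 74.8 CPM. Just outside it stood WT male cell 13 with 6.68 CPM, WT male cell 5 with 4.12 CPM and WT female cell 5 with 3.90 CPM. In the shallowest cell, 10 CPM corresponded to 29.5 counts, so the limit lay above single reads in every library.

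Carriers were found in all 4 label groups. They were 10 of 15 Mut male cells (66.7%, exact 95% binomial interval 38.4 to 88.2%) and 5 of 19 Mut female cells (26.3%, 9.15 to 51.2%). Among WT cells they were 12 of 19 in males (63.2%, 38.4 to 83.7%) and 4 of 9 in females (44.4%, 13.7 to 78.8%). By genotype the shares were 44.1% of the 34 Mut cells (27.2 to 62.1%) and 57.1% of the 28 WT cells (37.2 to 75.5%). By sex they were 64.7% of the 34 male cells (46.5 to 80.3%) and 32.1% of the 28 female cells (15.9 to 52.4%). The intervals cover the drawing of cells only and not the spread between animals, so the shares were not tested between groups. Among carriers, the median Neurod6 level was 356 CPM in Mut male, 96.7 CPM in Mut female, 181 CPM in WT male and 223 CPM in WT female cells.

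**Figure D1:**
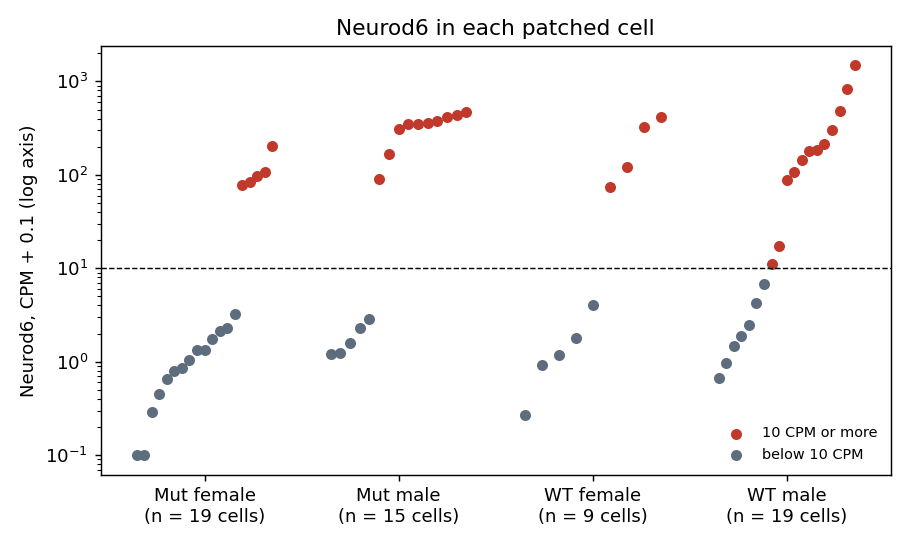
Neurod6 in each of the 62 patched cells, as CPM plus 0.1 on a log axis, in the 4 label groups; each point is 1 cell, red at 10 CPM or more (dashed line) and grey below. The 31 cells above the line reach 1482 CPM, the 31 below it stay at or under 6.68 CPM, and few cells lie near the line.

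The libraries held between 2946456 and 12070780 counts per cell. Carriers had a median of 7351809 counts and 4327 genes at 10 CPM or more, against 5454080 counts and 3667 genes in the other cells. This difference in detected genes goes with every count of cells below, and its part in those counts was not tested. The sets also differed in sex and genotype. Carriers were 22 male and 9 female cells, and the other cells were 12 male and 19 female. Mut female cells made up 5 of the carriers and 14 of the other cells. Counts of cells and medians over a whole set are not matched for label group, unlike the tests on sums. The part of label group in these counts and medians was not tested. Mitochondrially encoded genes took a median of 1.22% of counts in both sets. The 8 sums held 29019461 to 78761157 counts. Some libraries of both sets went against the interneuron label, with Lhx6 or Gad1 below 10 CPM in 2 carriers and in 5 other cells. WT male cell 12 had Lhx6 at 2.55 CPM and Gad1 at 8.24 CPM, and Mut male cell 3 had Lhx6 at 3.08 CPM and Gad1 at 2.78 CPM, the second beside Crym at 3686 CPM and Gad2 at 369 CPM. Of the other cells, WT male cell 16 had Gad1 at 7.10 CPM and Gad2 at 2.59 CPM, and Mut female cell 6 had Gad1 at 9.86 CPM and Gad2 at 0.61 CPM. Lhx6 was at 4.74 CPM in Mut female cell 18, 2.67 CPM in WT female cell 7 and 2.57 CPM in Mut female cell 2.

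The other pyramidal markers named with Neurod6 did not follow it in a uniform way. Slc17a7, the vesicular glutamate transporter VGLUT1 of mature pyramidal neurons (chromosome 7, 45163949 to 45176142, GRCm38), was at 10 CPM or more in 14 of 31 carriers and in 8 of 31 other cells. Its level ran from 0 to 478 CPM with a median of 3.67 CPM in carriers, and from 0 to 136 CPM with a median of 0.62 CPM in the other cells. The summed level, in CPM scaled by TMM (edgeR's trimmed mean of M values), was 49.9 in Mut male, 2.76 in Mut female, 60.6 in WT male and 12.1 in WT female carriers, against 7.38, 28.6, 1.504 and 31.8 in the other cells of the same groups. Carriers thus had the higher level in both male groups and the lower level in both female groups, and the fitted log2 fold change was 0.74 with a standard error of 2.24 (edgeR quasi-likelihood test, Benjamini-Hochberg adjusted p = 1, unadjusted p = 0.746). The direction turned without the Mut male cells (-0.58), without the WT male cells (-0.85) and without WT female cell 6 alone (-0.40).

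Mpped1, a metallophosphoesterase gene enriched in forebrain pyramidal neurons, was at 10 CPM or more in 30 carriers and 28 other cells. It ran from 7.89 to 2052 CPM (median 715 CPM) in carriers and from 1.81 to 2028 CPM (median 639 CPM) in the other cells, 2 ranges that overlap almost fully. The log2 fold change was 0.01 with a standard error of 0.31 (edgeR, adjusted p = 1), a difference smaller than its error whose sign varied with the settings tried. It was larger in 2 settings, with 1.11 (SE 0.53) at a Neurod6 limit of 1 CPM and 1.12 (SE 0.54) without the cells from 1 to under 50 CPM. In these settings 63.5% and 59.7% of all genes were above 0. Since Mpped1 was found in nearly every reporter-positive cell and Slc17a7 in a minority of both sets, the cells are called by the rule, as Neurod6 carriers, and not as cells with pyramidal RNA.

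Across the transcriptome, no gene passed the test. Of 13372 genes tested, 0 were higher and 0 lower in carriers at an adjusted p under 0.05 (edgeR; 0% in either direction). At an unadjusted p under 0.05, 175 genes were higher (1.31%) and 208 lower (1.56%). DESeq2 on the same sums called 361 genes higher (2.7%) and 264 lower (1.97%). Of 165 tested members of the gene lists examined below, it called 6 higher and 4 lower. These calls were not confined to pyramidal genes, and they included Gabrg1 and Slc1a3, both with lower levels in carriers in the edgeR fit. The biological coefficient of variation of the sums was 1.069. The log2 fold change was above 0 in 48.7% of genes and below 0 in 51.3%, and its median was -0.03. With library totals in place of TMM scaling this median was 0.12. Genes higher in all 4 label groups made up 5.58% and genes lower in all 4 made up 6.01%. By number of cells, 67.8% of the 9185 genes found at 10 CPM in 8 or more cells were in more carriers than other cells, and 20.9% in fewer. All adjusted p values of named genes were 1 in the edgeR fit, and the values below describe these libraries.

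Of 12 further pyramidal transcription factor genes, 9 passed the filter on low counts and 8 of those had a log2 fold change above 0, with a median of 1.15. Neurod2, a close relative of Neurod6 that drives maturation of the same neurons (chromosome 11, 98325415 to 98329648, minus strand), was at 10 CPM or more in 19 carriers and 10 other cells. It ran from 0.17 to 427 CPM with a median of 36.0 CPM in carriers, and from 0 to 83.7 CPM with a median of 0.93 CPM in the other cells. Summed levels were 57.3 TMM-scaled CPM in Mut male, 27.7 in Mut female, 83.3 in WT male and 69.4 in WT female carriers, against 5.20, 19, 6.13 and 13.4 in the other cells. Carriers were higher in all 4 label groups, as they were for 5.58% of all genes. The log2 fold change of 2.58 (SE 1.15) had an unadjusted p of 0.0474 in edgeR, with an adjusted p of 0.0489 in DESeq2.

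Zbtb18, a repressor needed for pyramidal neuron differentiation, was at 10 CPM in 27 carriers and 19 other cells, with medians of 404 and 77.0 CPM. Its sums were 411, 121, 499 and 516 TMM-scaled CPM in Mut male, Mut female, WT male and WT female carriers, against 71.2, 134, 246 and 225 in the other cells. Carriers were higher in 3 of the 4 label groups (log2 fold change 1.15, SE 0.49, unadjusted p = 0.0397, edgeR). Fezf2, a factor of subcerebral projection neurons, was at 10 CPM in 4 carriers and in none of the other cells, and Tbr1, a factor of early-born projection neurons, in 6 carriers and 2 other cells. Zbtb20, a hippocampal factor, was in all 62 cells, and Emx2 reached 10 CPM in none.

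Slc17a6, the gene of VGLUT2, the vesicular glutamate transporter that immature pyramidal neurons use (chromosome 7, 51622006 to 51671119), was at 10 CPM or more in 8 carriers and 1 other cell. The highest carrier, WT female cell 8, had 650.0 CPM and held 62.9% of the carriers' counts, and the highest other cell, WT female cell 2, had 20.4 CPM. Summed levels were 4.26 TMM-scaled CPM in Mut male, 3.87 in Mut female, 26.6 in WT male and 226 in WT female carriers, against 0.28, 0.023, 0.31 and 5.62 in the other cells. Carriers were higher within every label group, although the sums of the 2 sets overlap across groups. Among Mut carriers only Mut male cell 4, with 37.8 CPM, and Mut female cell 16, with 14.4 CPM, reached 10 CPM. With a log2 fold change of 5.71 (SE 1.30), Slc17a6 had the smallest unadjusted p among the pyramidal genes (p = 0.00123, edgeR), and without WT female cell 8 the fold change was 4.87. DESeq2 gave Slc17a6 an adjusted p of 1.94e-07.

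The starts of Neurod6 and of these 2 genes are shown because Neurod2 and Slc17a6 were higher in carriers within every label group. The sequences are from RefSeq on GRCm38.p6, 250 bases before to 50 after a gene start, and capitals mark CAGATG or its reverse complement CATCTG, an E-box to which NeuroD factors bind. Only these letters were searched, on both strands.
Neurod6, chr6:55681214-55681513, minus strand: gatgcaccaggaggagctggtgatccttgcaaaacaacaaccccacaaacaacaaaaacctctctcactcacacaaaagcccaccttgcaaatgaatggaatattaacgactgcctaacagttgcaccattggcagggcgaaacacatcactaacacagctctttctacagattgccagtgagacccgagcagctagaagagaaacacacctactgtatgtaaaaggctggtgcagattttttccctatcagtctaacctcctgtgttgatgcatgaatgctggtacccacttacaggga
Neurod2, chr11:98329596-98329895, minus strand: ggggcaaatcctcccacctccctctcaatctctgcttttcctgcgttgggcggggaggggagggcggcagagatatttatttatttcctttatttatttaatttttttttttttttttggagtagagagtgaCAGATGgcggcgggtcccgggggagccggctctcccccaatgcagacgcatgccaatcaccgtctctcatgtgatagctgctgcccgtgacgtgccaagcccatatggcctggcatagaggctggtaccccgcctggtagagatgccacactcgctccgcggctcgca
Slc17a6, chr7:51621580-51621879, plus strand: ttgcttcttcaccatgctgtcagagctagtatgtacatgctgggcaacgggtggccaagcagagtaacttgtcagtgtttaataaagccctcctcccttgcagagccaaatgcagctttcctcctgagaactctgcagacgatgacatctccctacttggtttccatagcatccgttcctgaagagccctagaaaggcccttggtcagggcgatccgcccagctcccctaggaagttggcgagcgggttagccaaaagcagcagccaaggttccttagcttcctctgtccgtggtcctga
Slc17a6, a second start further in, chr7:51624387-51624686, plus strand: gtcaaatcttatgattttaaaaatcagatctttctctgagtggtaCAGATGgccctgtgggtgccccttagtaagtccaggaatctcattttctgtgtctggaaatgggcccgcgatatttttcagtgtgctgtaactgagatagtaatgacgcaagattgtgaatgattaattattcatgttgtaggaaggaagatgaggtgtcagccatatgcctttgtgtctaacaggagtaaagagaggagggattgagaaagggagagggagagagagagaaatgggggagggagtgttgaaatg
The letters occur in the Neurod2 window and in the second window of Slc17a6. They occur neither in the first window of Slc17a6 nor in that of Neurod6. Of the 31 genes of the 3 pyramidal lists with Neurod6, 21 had an entry and 4 of those held the letters at any listed start (19.05%), against 19.2% of 27025 genes in the table, so the share was near that of genes in general.

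In the list of glutamate transport and pyramidal signalling, 9 of 10 genes passed the filter and 7 had a log2 fold change above 0, with a median of 0.74. This median was 0.22 at a Neurod6 limit of 1 CPM and turned to -0.24 without the cells from 1 to under 50 CPM. Hpca, a calcium sensor abundant in hippocampal pyramidal cells, was at 10 CPM in 29 carriers and 17 other cells, 1 of the 44 genes (0.479%) with a surplus of 12 or more carriers. Its medians were 153 and 16.6 CPM, yet its summed level was higher in carriers in only 2 label groups (log2 fold change 0.74, SE 0.60). The highest value of all was 1089 CPM in WT male cell 20, with Neurod6 at 2.34 CPM. Camk2a, the alpha subunit of calcium/calmodulin-dependent kinase II, was in 19 carriers and 11 other cells, with medians of 18.95 and 0.94 CPM (log2 fold change 1.14, SE 1.04). Sv2b, a synaptic vesicle protein of glutamatergic terminals, was in 9 carriers and 5 other cells and was higher in carriers in all 4 groups (2.84, SE 1.33). Nrgn, the postsynaptic protein neurogranin, was widespread in both sets, with 29 and 26 cells.

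Among 8 other genes enriched in pyramidal neurons, all 8 passed the filter and 7 had a log2 fold change above 0, with a median of 0.32. Sla, an adaptor protein gene, was at 10 CPM in 15 carriers and 4 other cells, with the highest values of 271 CPM in WT female cell 4 and 118 CPM in Mut male cell 6 of the other cells. It was higher in carriers in 3 of 4 groups (log2 fold change 3.99, SE 1.61, unadjusted p = 0.0318, edgeR, and adjusted p = 0.00709, DESeq2), and without WT female cell 4 its fold change was 2.13. Crym, a thyroid hormone-binding protein of deep-layer and hippocampal pyramidal cells, was in 30 carriers and 23 other cells, with medians of 886 and 141 CPM (0.81, SE 0.44). Lpl, a lipoprotein lipase, was in 28 carriers and 20 other cells with a log2 fold change of 0.16 (SE 0.37).

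**Figure D2:**
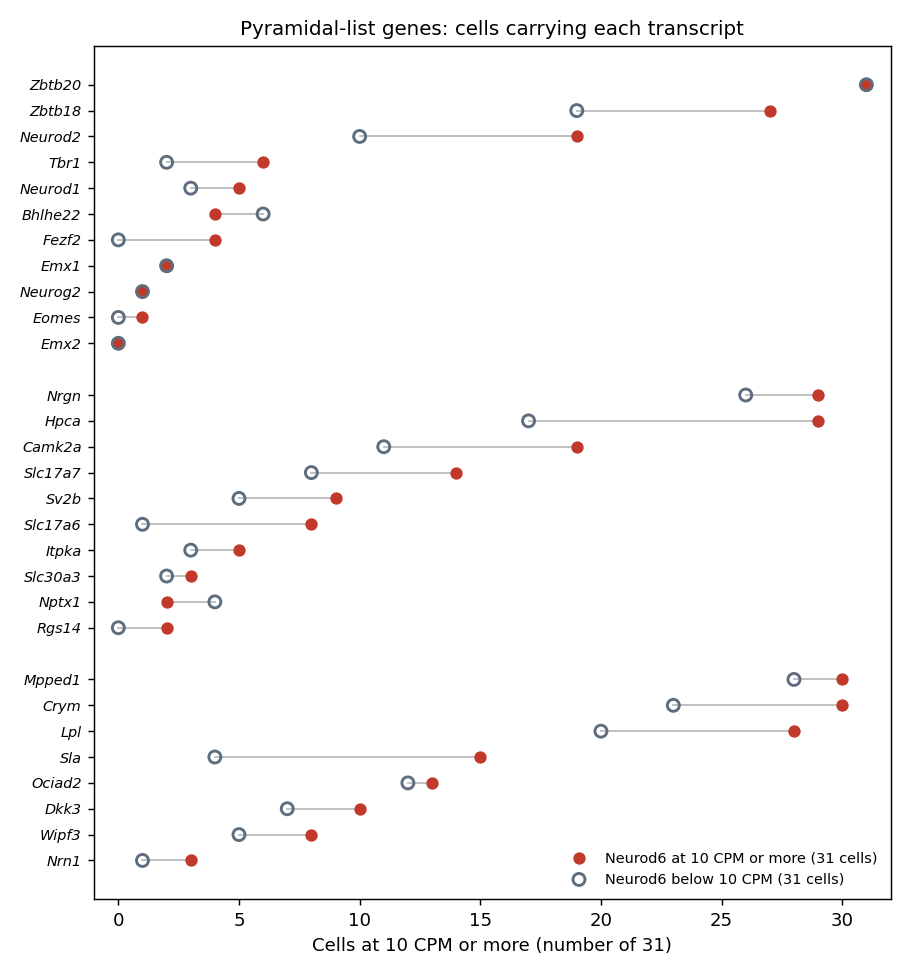
Number of cells, of 31 in each set, with each gene shown from the 3 pyramidal lists at 10 CPM or more; filled points are Neurod6 carriers, open points are cells below 10 CPM, and the line joins the 2 counts of a gene. Hpca (29 and 17 cells), Sla (15 and 4) and Neurod2 (19 and 10) have long lines, while Mpped1 (30 and 28) and Zbtb20 (31 and 31) have short or none.

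Counted together, 26 genes of the 3 lists passed the filter and 22 had a log2 fold change above 0 (84.6%), against 48.7% of all genes. Without the cell of highest Neurod6 in each label group, 18 of 26 were above 0 (69.2%), against 50.2% of all genes. A limit of 1 CPM leaves 12 cells below it and none of them Mut male. At that limit 17 of 26 were above 0 (65.4%), against 63.5% of all genes, so the surplus in this share was not seen. With cells from 1 to under 50 CPM left out, 16 of 26 were above 0 (61.5%), against 59.7% of all genes. The median log2 fold change of these pyramidal genes was 0.73 in the main fit. It was 1.01 at the 1 CPM limit and 0.89 without the cells from 1 to under 50 CPM. The median of all genes also rose in both settings but stayed lower, as given in the section on processing. The balance also differed among the label groups. In Mut male and WT male cells 20 of the 26 genes were higher in carriers, against 9 in Mut female and 14 in WT female cells. The median log2 ratio of carriers to other cells over these genes was 2.01 in Mut male, -0.15 in Mut female, 1.32 in WT male and 0.59 in WT female cells. Over all genes the same medians were between -0.09 and 0.06. Most of these genes were thus not higher in the 5 Mut female carriers, and 6 of the 14 other Mut female cells had Neurod2 at 10 CPM.

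The contrast between sexes was examined with an interaction term after these values had been seen. No gene passed (edgeR, 0 of 13372; 562 genes, 4.2%, at an unadjusted p under 0.05), and DESeq2 called 785. For Slc17a7 the log2 difference between the male and the female contrast was 6.43 (SE 2.74, unadjusted p = 0.0459, adjusted p = 1, edgeR). Grin3a, an NMDA receptor subunit gene, had a difference of 5.14 (SE 1.57, unadjusted p = 0.0106) and Nrgn of 2.15 (SE 1.01). Between Mut and WT, the same term gave 0 genes in edgeR (420 genes, 3.14%, unadjusted) and 642 in DESeq2. Each of these terms sets 2 pairs of sums against 2.

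Within single cells, pyramidal transcripts came in varied combinations. Of the 30 genes in the 3 lists, a carrier had 6 to 20 at 10 CPM or more, with a median of 11, and one of the other cells had 3 to 18, with a median of 7. Either vesicular glutamate transporter was found in 16 carriers and 8 other cells. In carriers, 6 cells had both transporters, 8 had Slc17a7 alone, 2 had Slc17a6 alone and 15 had neither. The highest Neurod6 level belonged to WT male cell 14, which also had Zbtb18 at 1558 CPM, Neurod2 at 291 CPM, Slc17a6 at 121 CPM and Slc17a7 at 105 CPM. WT male cell 12, next in Neurod6 with 833 CPM, had Neurod2 at 1.52 CPM and Slc17a7 at 6.07 CPM. The reverse also occurred, since Mut female cell 23 had Slc17a7 at 136 CPM and Neurod2 at 83.7 CPM with Neurod6 at 3.18 CPM.

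Among the 31 carriers, the Neurod6 level tracked the other genes only loosely. Spearman's rho with Neurod6 was 0.30 for Slc17a7, 0.13 for Slc17a6, 0.07 for Neurod2, 0.23 for Zbtb18, 0.18 for Crym and 0.30 for Hpca. The number of pyramidal genes had a rho of 0.33 with Neurod6 and of 0.45 with the number of all genes at 10 CPM. Values of 1 cell share its library and depth, and these coefficients are descriptions.

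**Figure D3:**
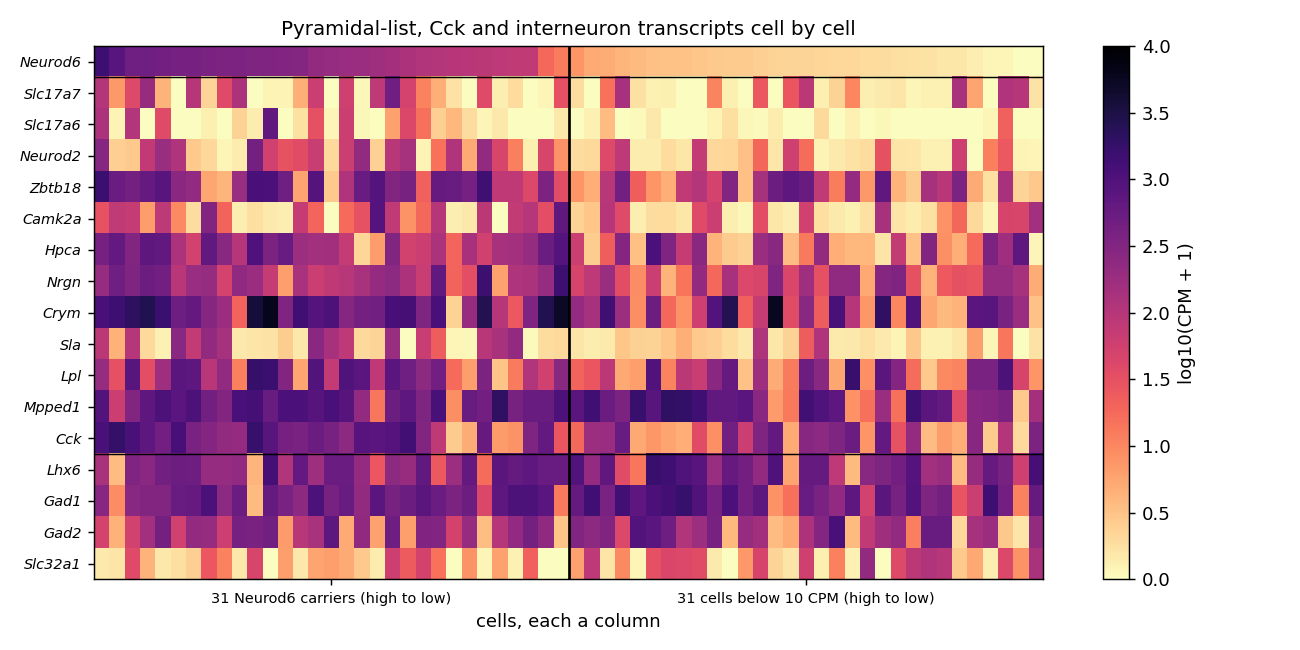
Each column is 1 cell, ordered by Neurod6 from high to low with the 31 carriers left of the thick line and the 31 cells below 10 CPM right of it; the top row is Neurod6, rows down to the lower line are pyramidal-list genes and Cck, and rows below it are Lhx6 and GABA genes, and colour is log10 of CPM plus 1. The glutamate transporter and Neurod2 rows are patchy among carriers, and the Lhx6 and Gad1 rows are filled in nearly all columns of both sets.

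The defining genes of MGE interneurons were found in nearly all cells of both sets. Lhx6 was at 10 CPM or more in 29 carriers and 28 other cells, with medians of 255 and 404 CPM, and Gad1 in 29 cells of each set, with medians of 506 and 569 CPM. Both genes together were found in 29 of 31 carriers and 26 of 31 other cells. All 16 carriers with a vesicular glutamate transporter also had Gad1 or Slc32a1, so glutamatergic and GABAergic transcripts occurred in the same libraries. Among the 8 other cells with such a transporter, 7 did. WT female cell 8, with the highest Slc17a6 level, also had the highest Lhx6 level of all carriers, 1247 CPM. Results were recomputed with the 29 carriers and 26 other cells that had both genes, which leaves out the 2 carriers and 5 other cells described above. Slc17a7 was then at 10 CPM in 14 carriers and 5 other cells, Slc17a6 in 8 and 1, Neurod2 in 18 and 8 and Hpca in 27 and 15. The log2 fold change was 5.71 for Slc17a6, 2.35 for Neurod2, 3.89 for Sla and 1.43 for Zbtb18. Of 25 pyramidal genes tested, 20 were above 0 (80%), against 50.1% of all genes.

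Genes for GABA handling had lower levels in carriers, without passing the test. All 6 members of the list had a log2 fold change below 0 (median -1.01), and 3 were lower in all 4 label groups, where 6.01% of all genes were. With carriers taken at a Neurod6 limit of 1 CPM, 4 of the 6 genes were above 0, against 63.5% of all genes. Slc32a1, the vesicular GABA transporter, was at 10 CPM in 8 carriers and 15 other cells, with sums of 7.66 to 13.99 against 17.2 to 45.7 TMM-scaled CPM. Abat, which breaks GABA down, was in 14 and 17 cells and was lower in all 4 groups (-1.38, SE 0.64).

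**Figure D4:**
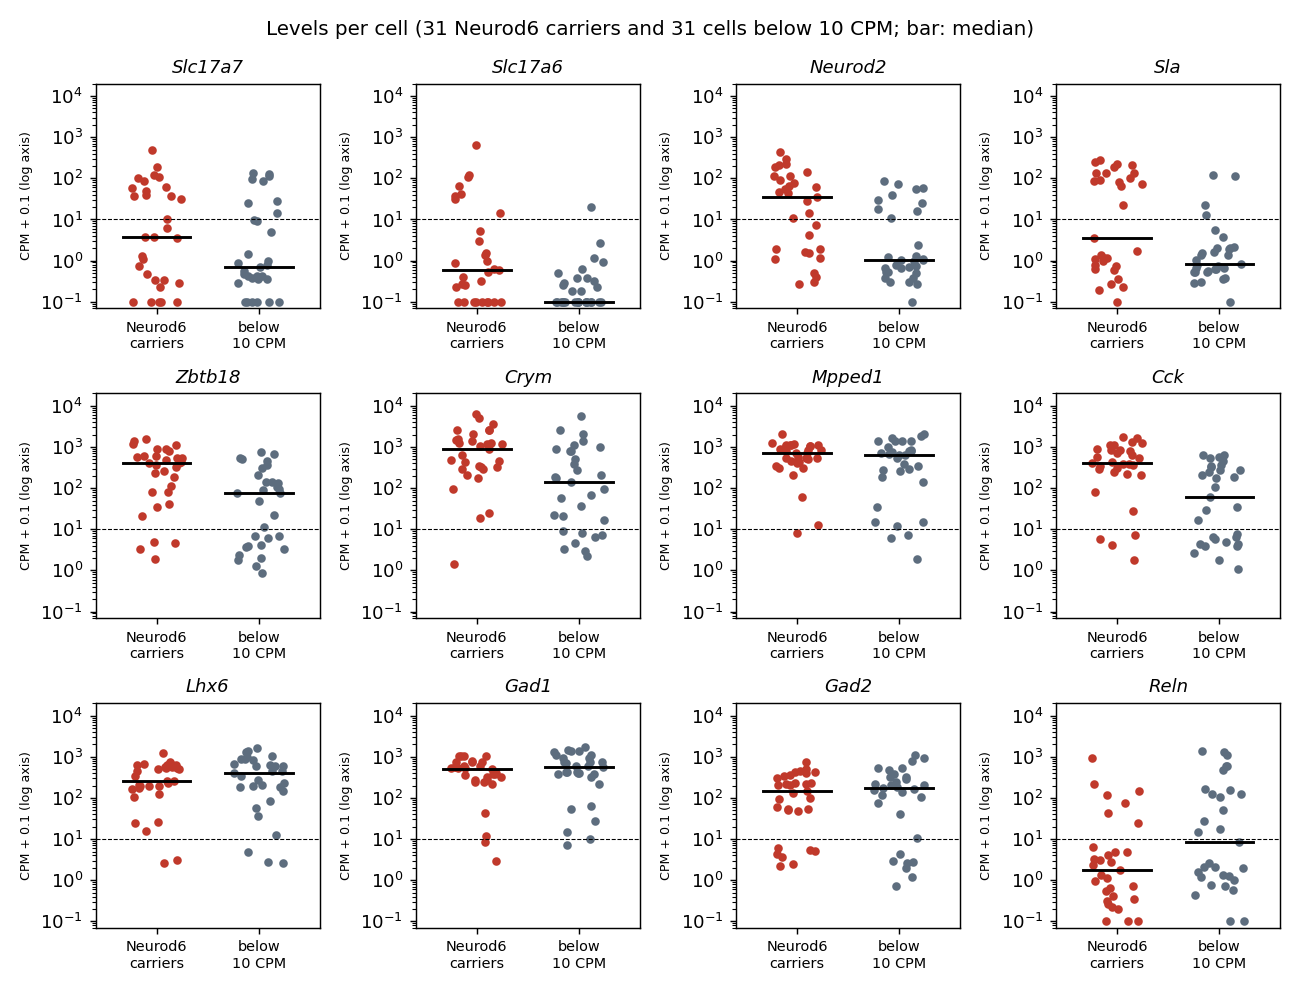
Levels of 12 genes in each cell, as CPM plus 0.1 on a log axis, for the 31 Neurod6 carriers (left, red) and the 31 cells below 10 CPM (right, grey); bars are medians and the dashed line marks 10 CPM. Medians of Neurod2 (36.0 and 0.93 CPM), Crym (886 and 141 CPM) and Cck (406 and 60.5 CPM) are higher in carriers, Lhx6 is lower (255 and 404 CPM), and the ranges overlap in every panel.

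Of 12 MGE lineage factors, 11 had a row and passed the filter, 3 of these had a log2 fold change above 0, and the median was -0.33. The median turned to 0.38 at a limit of 1 CPM, where 63.5% of all genes were above 0. Without the cells from 1 to under 50 CPM it turned to 0.31, where 59.7% of all genes were above 0. Nkx2-1 itself, the gene whose Cre drives the reporter, was in 5 and 6 cells and was lower in carriers in all 4 groups (-2.48, SE 1.48). Sox6, which acts below Lhx6, was in 15 and 10 cells (1.74, SE 1.23). By label group, 1 of the 11 factors was higher in Mut male carriers and 3 in WT male carriers, against 5 in Mut female and 8 in WT female carriers.

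Genes that mark subtypes of MGE interneurons were found in both sets. Among 10 tested, 7 had a log2 fold change above 0, with a median of 0.32. Sst, the peptide of dendrite-targeting interneurons, was in 13 carriers and 8 other cells, with 68.0% of the carriers' counts in Mut male cell 7 at 10062 CPM, and its log2 fold change of 0.87 (SE 2.45) was -1.16 without Mut female cell 22. Pvalb, the marker of the basket cells that the design text says were enriched, was at 10 CPM in 0 carriers and 1 other cell. Npy was in 27 cells of each set, Tac1 in 17 carriers and 13 other cells, and Nos1 in 7 and 3. Kcnc1, a potassium channel of fast-spiking cells, was in 16 carriers and 10 other cells and was higher in all 4 groups (1.33, SE 0.87). Pnoc, the nociceptin precursor, was in 12 and 16 cells and was lower in all 4 groups (-2.35, SE 0.77, unadjusted p = 0.0118, edgeR).

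Reln, an extracellular protein of many interneurons, was at 10 CPM in 7 carriers and 15 other cells, a deficit shared by few genes (0.468% of genes had 7 or more cells fewer among carriers). It ran from 0 to 947 CPM in carriers (median 1.72 CPM), with 70.0% of their counts in Mut female cell 22, and from 0 to 1377 CPM in the other cells (median 8.55 CPM). The log2 fold change was -1.17 (SE 0.68), and -2.51 without Mut female cell 22. At a Neurod6 limit of 1 CPM, where 63.5% of all genes were above 0, it turned to 0.78. Reln was 1 of 8 markers of Cajal-Retzius cells examined, and Trp73, Lhx1, Lhx5 and Ebf3, which define those cells, were at 10 CPM in no cell of either set. The median log2 fold change of the 5 members tested was -1.05, and it turned to 0.78 at a limit of 1 CPM and to 0.88 without the cells from 1 to under 50 CPM.

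Cck, a neuropeptide gene expressed by pyramidal neurons and by interneurons of the caudal ganglionic eminence (CGE), was in 27 carriers and 19 other cells. It ran from 1.64 to 1785 CPM (median 406 CPM) in carriers and from 1.01 to 639 CPM (median 60.5 CPM) in the other cells. Sums of carriers were 419, 130.4, 579 and 921 TMM-scaled CPM in Mut male, Mut female, WT male and WT female cells, against 183, 107, 284 and 386 in the other cells. Carriers were higher in all 4 groups (log2 fold change 0.94, SE 0.34, unadjusted p = 0.0205, edgeR). Of the other CGE markers, Cnr1, the cannabinoid receptor CB1, was in 15 carriers and 10 other cells, with a log2 fold change of -1.12 (SE 2.48). Nr2f2, a transcription factor of CGE cells, was in 5 carriers and 4 other cells (0.14, SE 2.45), with 79.5% of the carriers' counts in Mut female cell 22 at 329 CPM. Adarb2 was in 4 carriers and 3 other cells, with 85.6% of the other cells' counts in Mut male cell 12 at 316 CPM, and Prox1 in 2 and 5 cells. Sp8 was in 1 cell of each set, Vip and Sncg each in 0 carriers and 1 other cell, and Htr3a in none. The summed level of the 9 CGE markers, Cck included, ran from 6.02 to 2228 CPM (median 503 CPM) in carriers and from 2.62 to 1189.7 CPM (median 230.1 CPM) in the other cells. The median log2 fold change of the 6 tested was -0.49. It turned to 0.59 at a limit of 1 CPM, where 63.5% of all genes were above 0, and to 0.88 without the Mut male cells.

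**Figure D5:**
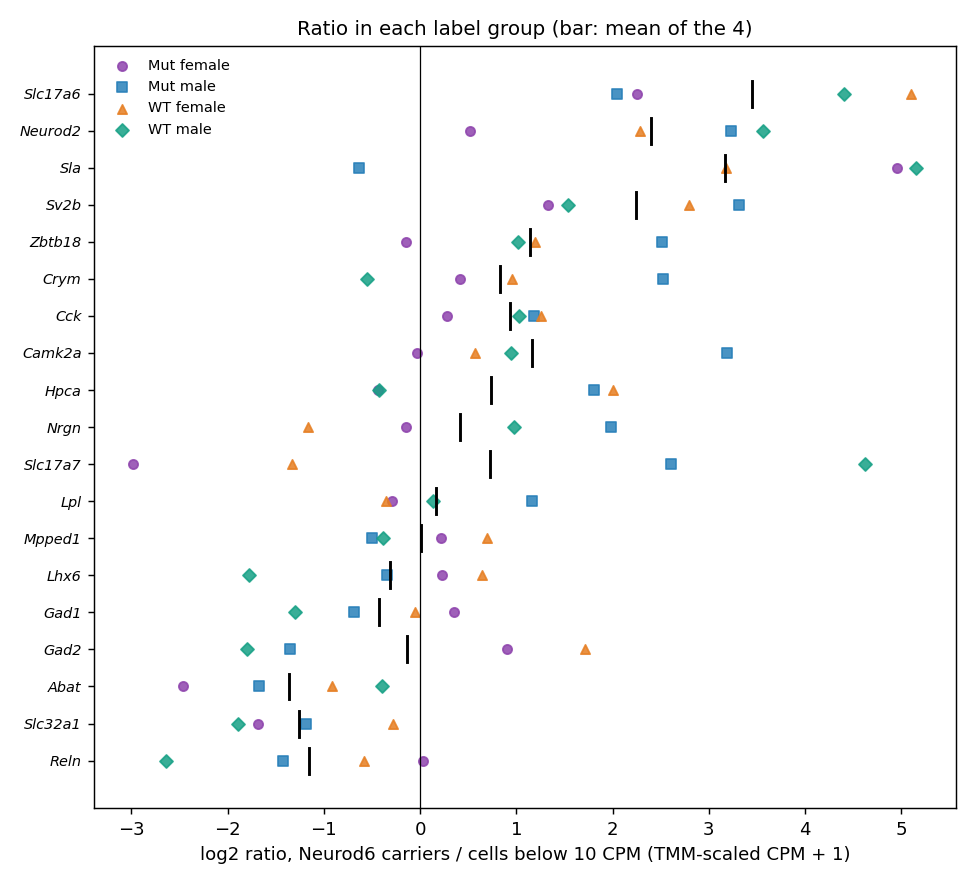
Log2 ratio of the summed TMM-scaled CPM plus 1 of Neurod6 carriers to that of cells below 10 CPM, in each label group (coloured symbols), with the mean of the 4 as a bar; values right of 0 are higher in carriers. Slc17a6, Neurod2, Sv2b and Cck lie right of 0 in every group, Abat and Slc32a1 lie left of it in every group, and Slc17a7 spans -2.98 to 4.62.

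Markers of hippocampal subfields had log2 fold changes on both sides of 0. Pou3f1, a transcription factor of CA1 pyramidal cells, was in 20 carriers and 11 other cells (0.43, SE 1.06), and Wfs1, a marker of CA1 pyramidal cells, in 8 and 2 cells. WT male cell 16, with Neurod6 at 1.37 CPM, held 95.6% of the other cells' Wfs1 counts at 1846 CPM, and without this cell the log2 fold change turned to 0.51, against -1.14 with it. The median over the 4 CA1 genes tested was -1.36 and over the 4 CA3 and dentate genes -0.70. At a limit of 1 CPM, where 63.5% of all genes were above 0, the CA3 and dentate median turned to 0.67. Without the Mut male cells it turned to 0.35. Iyd, Dsp and C1ql2 of the second list were at 10 CPM in no cell.

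Of 9 mRNAs known to be localised to dendrites, 7 had a log2 fold change above 0, with a median of 0.17. Map2, Shank1 and Psd, the abundant ones, were at 0.13 (SE 0.36), -0.10 (SE 0.41) and 0.17 (SE 0.49), close to the median of all genes. Ddn was in 9 carriers and 4 other cells (2.03, SE 1.63).

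Glutamate receptor subunit genes had a median of 0.09 over 13 genes, 8 of them above 0. Grin3a was in 21 carriers and 7 other cells, with medians of 42.8 and 1.47 CPM, which is among the largest surpluses of carriers found (14 cells, shared with Ccar2 and Parp8). Its summed level was higher in carriers in only 2 groups (log2 fold change 1.63, SE 1.38), and Mut female cell 15, with Neurod6 at 2.20 CPM, had the highest value of 1802 CPM. GABA-A receptor subunit genes had a median of -0.39 over 12 genes, 4 of them above 0. This median turned to 0.91 at a limit of 1 CPM, where 63.5% of all genes were above 0. Without the cells from 1 to under 50 CPM it turned to 0.13, where 59.7% of all genes were above 0. Gabrg1 was at 10 CPM in 1 carrier and 7 other cells (-7.08, SE 3.001, unadjusted p = 0.039, edgeR).

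Immediate early genes, which neurons switch on with activity or handling, had a median of -0.29 over 15 genes, 5 of them above 0. Fos was in 20 carriers and 23 other cells, with medians of 161 and 340 CPM, and was lower in carriers in 3 of 4 groups (-1.49, SE 0.54, unadjusted p = 0.02, edgeR). By label group the list differed widely, with 14 of 15 genes higher in Mut male carriers, 4 in Mut female, 10 in WT male and 1 in WT female carriers.

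Transcripts of other cell types were found in both sets, and their part in the differences above was not tested. Astrocyte markers had a median log2 fold change of -1.88 over 12 genes, 3 above 0. This median was -0.81 in cells with both Lhx6 and Gad1 at 10 CPM, and -0.01 at a Neurod6 limit of 1 CPM. The summed astrocyte level ran from 48.4 to 8338 CPM (median 380 CPM) in carriers and from 8.32 to 11255 CPM (median 459 CPM) in the other cells. The direction differed by group, with 11 of 12 astrocyte genes higher in carriers of Mut male cells and 2 to 3 in the other groups. Slc1a3, a glial glutamate transporter, was in 7 carriers and 12 other cells (-3.98, SE 1.59, unadjusted p = 0.0303, edgeR), with Mut male cell 1 holding 45.1% of the carriers' counts and WT female cell 7 42.0% of the other cells' counts. Aqp4, a defining astrocyte water channel, was in 0 carriers and 3 other cells. Oligodendrocyte lineage markers had a median of -1.32 over 5 genes, and microglial markers of 0.30 over 10, with 10 of 10 microglial genes higher in carriers of WT female cells and none in carriers of Mut female cells. The summed oligodendrocyte level had a median of 3.75 CPM in carriers (0.33 to 475 CPM) and of 10.3 CPM in the other cells (0.19 to 1916 CPM). The summed microglial level had a median of 16.9 CPM in carriers (1.44 to 1254 CPM) and of 11.3 CPM in the other cells (0.92 to 7011 CPM).

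All 8 blood and vessel markers tested had a log2 fold change below 0 (median -0.97), and 4 were lower in carriers in all 4 label groups. At a limit of 1 CPM this median turned to 0.33, against 0.56 over all genes. Their summed level ran from 11.6 to 12000.2 CPM (median 362 CPM) in carriers and from 18.1 to 26996 CPM (median 484 CPM) in the other cells. The haemoglobin gene Hba-a1 was in 21 carriers and 27 other cells, with medians of 78.4 and 232 CPM (-1.20, SE 0.44, unadjusted p = 0.0214, edgeR). The endothelial gene Cldn5 was in 0 carriers and 2 other cells. Reads of the near-identical haemoglobin copies Hba-a1 and Hba-a2 may have been split between them. Mitochondrially encoded genes had a median of -0.02 over 13 genes, which was 0.13 with library totals.

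Over all genes tested, 382 genes were higher and 380 lower in carriers in all 4 label groups while averaging 25 TMM-scaled CPM or more in the higher set and reaching 10 CPM in at least 8 of its cells. Those of smallest p are named, and Slc17a6 and Cck were among them. Since these values chose the genes, the levels below are a description and no test of them is given. Cep19, a centrosome and cilium gene, was in 24 carriers and 11 other cells, with sums of 123 to 228 TMM-scaled CPM in carriers against 40.2 to 72.1 in the other cells (log2 fold change 1.64, SE 0.55). Stx5a, a syntaxin of the Golgi, was in 21 and 8 cells (2.46, SE 0.83), Pnck, a neuronal calcium/calmodulin-dependent kinase, in 24 and 12 (1.95, SE 0.73) and Morn4 in 17 and 7 (1.98, SE 0.61). Zfp28, Ndrg1, Pef1, Eya1, Pgm3, Rrp9, Pogk, Usp11 and Mfap3 were the others on the higher side, in 8 to 17 carriers each and with log2 fold changes of 1.86 to 6.17.

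On the lower side, Rnf152, a ubiquitin ligase of lysosomes, was at 10 CPM in 1 carrier and 9 other cells, with sums of 0.31 to 1.68 TMM-scaled CPM in carriers against 26.9 to 174 in the other cells (log2 fold change -6.16, SE 1.18). Scd2, a stearoyl-CoA desaturase, was in 30 and 31 cells, with sums of 282 to 382 against 521 to 1120 TMM-scaled CPM (-1.10, SE 0.34). Rab31, a small GTPase of endosomes, was in 16 and 22 cells (-1.96, SE 0.54), and Tmem131, Pygb, Hnrnpll, Pla2g4e, Ufsp2, Fam208b and Glb1 had log2 fold changes of -6.61 to -1.82. Sgk1, a stress-responsive kinase named after its values were seen, had the largest deficit of carriers, with 6 against 17 cells (log2 fold change -2.40, SE 0.84). At a limit of 1 CPM, Rnf152, Scd2, Tmem131, Pygb, Ufsp2 and Glb1 turned to higher levels in carriers, with 3.98 for Rnf152 and 0.61 for Scd2. Of all genes, 63.5% were above 0 at that limit.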

How the data were processed

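Per the labels, each library is 1 patched cell. Per the submitters' processing notes, the reads were processed with kallisto, whose version is not given in the sources used here, and GRCm38. The deposited tables hold estimated counts per gene, with and without the authors' filter on cells, and TPM values made by the authors. The basis of the filter and of the contamination mark is not given in the sources used here. Columns that match no sample (44 in the filtered count table, 52 in the unfiltered one and 44 in the TPM table) were not used.

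The estimated counts were summed per label group and Neurod6 status and rounded, giving 8 sums, and 13372 of 35825 genes passed edgeR's filterByExpr with a minimum count of 10. Differences were tested with edgeR 4.0.16 (R 4.3.3) by its quasi-likelihood test with TMM scaling and the label group as a block (3 residual degrees of freedom, Benjamini-Hochberg adjustment). The block compares sums of the same genotype and sex, which the labels give, so it is part of the main design and not a pairing of animals. DESeq2 1.42.0 and limma 3.58.1 served as alternatives, and the code was tested on simulated data. Other alternatives changed the scaling, the filter, the Neurod6 limit, the unit and the cells used. Ratios per label group used a pseudocount of 1 CPM. Intervals are exact binomial intervals at 95%.

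Members of the 19 gene lists could be named. Other genes were taken in order of p, up to 15 higher and 10 lower, by the levels given above, passing over names that start with Gm or mt- or end in Rik. The cells, lists and tests were chosen with earlier results of these data known. Gene positions are from GENCODE and promoters from RefSeq on GRCm38. Values of some list members are not reported here.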

Additional observations from a re-analysis of the deposited data

Results flagged for a closer look

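Chance alone flags about 1 in 20 groups as holding a value far from the others. Among the 4 label groups, the log2 ratio of carriers to other cells of Stx5a stood apart in WT female cells at 5.20, and that of Rnf152 in WT male cells at -6.03. Among the 5 Mut female carriers, Neurod6 stood apart in cell 14 at 203.5 CPM.

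For 7 of 41 genes examined (17.1%) both male groups differed in sign from both female groups, a share near that among all 13372 genes tested (1939 genes, 14.5%), and the male minus female log2 difference had an adjusted p of 1 in edgeR for each of them. It was 6.43 for Slc17a7, 5.14 for Grin3a, 2.15 for Nrgn and 0.98 for Lpl. It was -0.90 for Mpped1, -1.50 for Lhx6 and -2.29 for Nxph1.

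Neurod6 was also at 10 CPM or more in cells outside the comparison. Of 5 cells marked as having contaminants, 3 carried it, with 394.8 CPM in WT female with contaminants cell 1, 149.9 CPM in WT male with contaminants cell 3 and 15.1 CPM in WT male with contaminants cell 1. Of 9 cells left out by the authors' filter, 2 carried it, with 1257 CPM in Mut female cell 12 and 12.2 CPM in Mut male cell 11.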

How the results depend on the processing

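DESeq2 called 361 genes higher and 264 lower, 642 that differed between Mut and WT and 785 between male and female, where edgeR called 0. With a Neurod6 limit of 1 CPM, and with cells from 1 to under 50 CPM left out, edgeR called 1 gene lower, and no Mut male cell remained on the low side in either setting. The median of all genes was then 0.56 and 0.39. With the 1 CPM limit, log2 fold changes turned to -0.039 for Slc17a7, -0.38 for Camk2a, -0.046 for Nrgn, -0.12 for Lpl, 0.38 for Lhx6, 0.30 for Gad1, 0.78 for Reln, 3.98 for Rnf152, 1.38 for Tmem131, 2.38 for Pygb, 1.99 for Ufsp2, 0.61 for Scd2 and 7.34 for Glb1. Without the cells from 1 to under 50 CPM they turned to -1.21 for Slc17a7, -0.29 for Camk2a, -0.20 for Nrgn, -0.12 for Lpl, 0.24 for Lhx6, 0.20 for Gad1, 0.55 for Reln, 0.87 for Pygb, 0.91 for Ufsp2 and 4.76 for Glb1. The cause was not tested.

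Without the replicate block of label group, Mpped1 turned to -0.050 and Lpl to -0.052, and 0 genes were called. In that fit 16 of 26 pyramidal genes were above 0 (61.5%), against 45.3% of all genes. No pairing by replicate number was possible because the numbers name single cells and no cell is in both sets. In cells with Lhx6 and Gad1, Mpped1 turned to -0.15. Leaving out 1 label group gave -0.85 to 2.45 for Slc17a7, -0.22 to 0.25 for Mpped1, -0.039 to 0.94 for Nrgn, -0.62 to 0.22 for Lhx6 and -0.92 to 0.13 for Nxph1. Leaving out 1 cell gave -0.40 to 1.89 for Slc17a7, -0.18 to 0.19 for Mpped1 and -0.18 to 0.41 for Lpl. Leaving out single cells and testing by sex were chosen after the data were seen. Without the Mut male cells 15 of 25 pyramidal genes tested were above 0, and without the WT male cells 18 of 25.

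Depth was 2946456 counts or more per cell, and the number of cells per sum, 4 to 14, limits every comparison. Cells of 1 animal on both sides of a comparison could not be told from cells of different animals. Intervals and counts cover sampling of cells and reads only.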

Other observations

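Cells left out of the comparison also held several pyramidal transcripts. Mut female cell 12, left out by the authors' filter with 1427 genes at 10 CPM, had Neurod2 at 770.2 CPM, Sla at 1632 CPM, Crym at 2947 CPM, Cck at 1503 CPM and Mpped1 at 1668 CPM, with Gad1 at 7.84 CPM and Lhx6 at 5.92 CPM. WT female with contaminants cell 1 had Crym at 3834 CPM, Neurod2 at 134 CPM, Slc17a7 at 65.4 CPM and Slc17a6 at 42.6 CPM, with Gad1 at 97.5 CPM and Lhx6 at 2.92 CPM. WT male with contaminants cell 3 had Neurod2 at 162 CPM, with Gad1 at 8.76 CPM and Lhx6 at 7.13 CPM. Its Mpped1 level of 360 CPM was below the median of either compared set. All 3 cells were below 10 CPM for Lhx6, as were 2 of the 31 carriers and 3 of the 31 other cells in the comparison. Of the remaining left-out cells with Neurod6 at 10 CPM, WT male with contaminants cell 1 had Lhx6 at 3.58 CPM and Mut male cell 11 at 32.5 CPM. Some left-out cells with a glutamate transporter had high Lhx6. WT male cell 2 had Slc17a6 at 224 CPM and Lhx6 at 294 CPM, and Mut male cell 9 had Slc17a7 at 127 CPM and Lhx6 at 5978 CPM.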
